A study of Homo sapiens with 23 samples.

Results

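The genes described here are 10 members of the BCL2 family of apoptosis regulators, BCL2, BCL2L1, BCL2L2, MCL1, BCL2L11, PMAIP1, BBC3, BID, BAX and BAK1. They were chosen by name and found by their NCBI Gene IDs, and all 10 had a row among the 21658 genes of the expression table. RNA-seq was carried out on 4 established ovarian cancer cell lines, Kuramochi, OVSAHO, OV-90 and EFO-21, each as the parental line and as a prexasertib-resistant derivative. Prexasertib is an inhibitor of the checkpoint kinase CHK1, and resistance was acquired by long-term culture in escalating drug concentrations. Each of the 8 groups had 3 biological replicates except parental OV-90, which had 2, giving 23 libraries. Each resistant group stands for 1 derivative of its line as far as the labels say, and whether it was 1 clone or whether drug was present at harvest is not given in the sources used here.

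Proteins of the BCL2 family decide whether the outer mitochondrial membrane is opened to release cytochrome c, the step that commits a cell to intrinsic apoptosis. The anti-apoptotic members BCL2, BCL2L1 (BCL-XL), BCL2L2 (BCL-W) and MCL1 hold the effectors BAX and BAK1 in check, and the BH3-only members BCL2L11 (BIM), PMAIP1 (NOXA), BBC3 (PUMA) and BID relieve that restraint or activate the effectors directly. Members differ in their partners: NOXA binds mainly MCL1, whereas BIM and PUMA bind all of the anti-apoptotic proteins. Much of their control is on protein stability, localisation and cleavage, which RNA does not show. BCL-XL and MCL1 are well known for sustaining survival of ovarian cancer cells under chemotherapy.

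Values are log2 expression per gene, quantile normalized by the authors over all libraries, so a difference of 1 is 2-fold. The table holds no read counts, and the depth of each library is unknown. Profiles of libraries of the same group correlated across genes at r = 0.952 to 0.988, and those of different lines at 0.624 to 0.808, with the lowest same-group value between both parental OV-90 libraries. KRT8 and KRT18, keratins of epithelial cells, lay at or above the 85.9th percentile of every library. The ovarian epithelial factor PAX8 was between 8.42 and 9.50 in Kuramochi, OVSAHO and EFO-21 but between 1.77 and 2.43 in OV-90. Of 8 epithelial markers, 7 passed the test as lower in resistant Kuramochi (23.3% of all genes did), 7 in OVSAHO (16.2%), 3 in OV-90 (17.9%) and 6 in EFO-21 (23.4%), and none as higher. WT1 and MUC16 were at or below the 10th percentile in 8 of 23 libraries each. The EFO-21 fall of WT1, from 1.03 to 0.04, lay within that range. The 9 markers of blood, endothelial and stromal cells varied in level. CD3E was at the bottom of the distribution (at or below the 10th percentile) in 14 libraries and COL1A2 in 15. PECAM1 was there in 12, CDH5 in 10, DCN in 9, PTPRC and LYZ in 4 each, and CD68 and COL1A1 in 0. LYZ reached 11.73 to 12.46 in OV-90. In EFO-21, CDH5 reached 9.03 to 9.43, PECAM1 8.45 to 8.59 and CD68 8.42 to 9.82. The mean of these 9 markers ranged from 2.26 to 2.51 in resistant against 3.26 to 3.84 in parental OVSAHO and from 4.99 to 5.06 against 5.40 to 6.10 in OV-90. Of these markers 3 rose and 6 fell in OVSAHO (17.1% and 16.2% of all genes did), 1 and 1 in OV-90 (18.1% and 17.9%), 2 and 2 in Kuramochi (23.6% and 23.3%) and 4 and 2 in EFO-21 (25% and 23.4%). Their mean ranged from 2.88 to 2.99 against 2.66 to 4.25 in Kuramochi and from 4.52 to 4.60 against 4.36 to 4.44 in EFO-21, and its part in the results was not tested.

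Promoter sequences are shown for the 3 members that passed the test in Kuramochi, the line with the largest change of a BH3-only gene. They were taken from RefSeq (GRCh38.p14) and run from 250 bases before to 50 after the annotated start, and 8 of the 10 members had such an entry. Capitals mark 3 motifs searched on both strands, the E-box CACGTG bound by MYC and related factors, the half-site TGACGT of CREB and ATF factors, and the GC box GGGCGG bound by SP1. On the opposite strand the half-site reads ACGTCA and the GC box CCGCCC.
PMAIP1, chr18:59899746-59900045, plus strand: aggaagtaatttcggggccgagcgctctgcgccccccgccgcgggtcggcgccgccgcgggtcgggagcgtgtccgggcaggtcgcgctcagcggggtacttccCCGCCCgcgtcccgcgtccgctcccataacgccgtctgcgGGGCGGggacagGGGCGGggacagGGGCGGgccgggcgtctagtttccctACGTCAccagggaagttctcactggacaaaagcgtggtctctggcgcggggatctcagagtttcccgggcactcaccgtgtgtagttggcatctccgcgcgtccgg
BAX, chr19:48954625-48954924, plus strand: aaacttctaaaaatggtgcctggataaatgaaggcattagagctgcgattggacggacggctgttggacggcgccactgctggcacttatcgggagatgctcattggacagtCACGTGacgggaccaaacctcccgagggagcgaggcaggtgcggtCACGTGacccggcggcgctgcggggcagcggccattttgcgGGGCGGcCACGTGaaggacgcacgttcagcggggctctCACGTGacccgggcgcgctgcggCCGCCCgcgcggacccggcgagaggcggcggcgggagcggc
BCL2L11, chr2:111120664-111120963, plus strand: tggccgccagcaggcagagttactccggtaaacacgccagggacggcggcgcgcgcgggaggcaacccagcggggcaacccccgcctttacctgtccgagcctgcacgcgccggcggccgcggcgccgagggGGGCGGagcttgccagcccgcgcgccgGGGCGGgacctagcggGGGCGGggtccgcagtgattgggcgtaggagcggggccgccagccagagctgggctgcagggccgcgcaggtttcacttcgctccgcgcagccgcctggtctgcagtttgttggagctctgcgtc
PMAIP1 held 1 half-site and 4 GC boxes, BAX 4 E-boxes and 2 GC boxes, and BCL2L11 3 GC boxes, and no match overlapped another. Over 35097 promoters of the same 300 bases, 7.25% held an E-box, 7.98% the half-site and 44.9% a GC box. A match describes letters and does not show that a factor was bound.

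At baseline, the question was how the parental lines differed in these genes. With limma, 46 of the 60 member and line-pair combinations passed an adjusted p of 0.05, against 68.2% of all gene and line-pair combinations, and 22 were also at least 2-fold, against 44.7%. By line pair, 7 members differed between Kuramochi and OVSAHO (62.5% of all genes did), 10 between Kuramochi and OV-90 (69%) and 6 between Kuramochi and EFO-21 (67.1%). OVSAHO and OV-90 differed at 9 members (70% of all genes), OVSAHO and EFO-21 at 6 (69%) and OV-90 and EFO-21 at 8 (71.9%). OV-90 stood apart from the other lines at MCL1 and BCL2, which were lowest there, and at BAX, which was highest. It was also lowest at BCL2L1 and BAK1 and highest at BBC3 and BID, each past the test against the next line. Parental OV-90 had 2 libraries, in which BCL2 lay at the 14th and 11.4th percentile. Library 2 differed from library 3 by a median of 0.26 over the genes with the shortest transcripts and -0.23 over the longest. BAX falls in class 1 of 4 equal classes of transcript length, MCL1 in class 3 and BCL2 in class 4. The part of transcript length in these differences was not tested. BCL2L1 and BAK1 differed in all 6 line pairs, and BCL2 and BAX in 3 each.

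Among the anti-apoptotic genes, BCL2 (NCBI Gene ID 596, chr18:60790579-60987361, minus strand, GRCh37, as for the positions that follow) was 4.33 ± 0.51 (SD, n = 3) in OVSAHO, 4.22 ± 0.43 (n = 3) in EFO-21, 3.67 ± 0.34 (n = 3) in Kuramochi and 2.30 ± 0.32 (n = 2) in OV-90. Neighbours among the upper 3 did not pass the test of a difference (limma adjusted p = 0.775 and 0.161), and OV-90 lay below Kuramochi (adjusted p = 0.0068). BCL2L1 (NCBI Gene ID 598, chr20:30252255-30311792, minus strand) was 8.33 ± 0.03 in EFO-21, 7.58 ± 0.06 in Kuramochi, 7.31 ± 0.04 in OVSAHO and 6.98 ± 0.23 in OV-90, and each step in that order passed the test (adjusted p = 4.24e-05, 0.0223 and 0.0143). BCL2L2 (NCBI Gene ID 599, chr14:23767999-23780960, plus strand) ran from 6.65 ± 0.13 in Kuramochi over 5.64 ± 0.13 in OV-90 and 5.32 ± 0.22 in OVSAHO to 4.56 ± 0.48 in EFO-21, and OV-90 against OVSAHO did not pass the test (adjusted p = 0.27). MCL1 (NCBI Gene ID 4170, chr1:150533371-150552214, minus strand) was 10.54 ± 0.36 in Kuramochi, 10.27 ± 0.07 in EFO-21 and 9.95 ± 0.11 in OVSAHO, with neighbours not past the test (adjusted p = 0.295 and 0.218), and 8.31 ± 0.62 in OV-90, below OVSAHO (adjusted p = 0.000188). The parental OV-90 libraries read 7.87 and 8.75 for MCL1, both under the lowest value of any other parental library, 9.84. BCL2L2 shares a stretch of the genome and its strand with the readthrough gene BCL2L2-PABPN1, and MCL1 overlaps ADAMTSL4 on the opposite strand. Both neighbours have rows of their own, and how the authors assigned shared reads is not given in the sources used here.

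Among the BH3-only genes, PMAIP1 (NCBI Gene ID 5366, chr18:57567228-57571537, plus strand) was 6.87 ± 0.08 in OVSAHO, 6.17 ± 0.35 in OV-90, 6.06 ± 0.50 in EFO-21 and 5.40 ± 0.19 in Kuramochi, where the middle step did not pass the test (adjusted p = 0.714) and the outer steps did (0.0361 and 0.0299). BBC3 (NCBI Gene ID 27113, chr19:47724079-47736023, minus strand) was highest in OV-90 at 7.71 ± 0.43, followed by Kuramochi at 6.71 ± 0.46, EFO-21 at 5.88 ± 0.44 and OVSAHO at 5.22 ± 0.50. The last step of BBC3 did not pass the test (adjusted p = 0.102). BCL2L11 (NCBI Gene ID 10018, chr2:111876955-111926021, plus strand) had the narrowest range of parental means among the members, 0.86. Its levels formed 2 pairs, OVSAHO at 5.36 ± 0.21 with Kuramochi at 5.31 ± 0.28 (adjusted p = 0.861), and EFO-21 at 4.56 ± 0.14 with OV-90 at 4.50 ± 0.45 (adjusted p = 0.839). The lncRNA MIR4435-2HG spans BCL2L11 on the opposite strand and has a row of its own. BID (NCBI Gene ID 637, chr22:18216904-18257536, minus strand), which caspase-8 cleaves to carry a death receptor signal to mitochondria, was 8.53 ± 0.34 in OV-90, 7.70 ± 0.12 in EFO-21, 7.65 ± 0.27 in Kuramochi and 6.81 ± 0.20 in OVSAHO, and EFO-21 against Kuramochi did not pass the test (adjusted p = 0.841).

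The effectors showed different orders. BAX (NCBI Gene ID 581, chr19:49458072-49465055, plus strand) was 9.21 ± 0.10 in OV-90 and 7.53 ± 0.33, 7.34 ± 0.13 and 7.33 ± 0.13 in Kuramochi, EFO-21 and OVSAHO, so OV-90 exceeded Kuramochi by 1.68 ± 0.17 (SE, adjusted p = 1.21e-05) and the lower steps did not pass the test (0.294 and 0.969). BAK1 (NCBI Gene ID 578, chr6:33540324-33548070, minus strand) was highest in OVSAHO at 9.04 ± 0.07, then 8.11 ± 0.15 in Kuramochi, 7.86 ± 0.02 in EFO-21 and 7.21 ± 0.01 in OV-90. Every step of BAK1 passed the test, the closest being Kuramochi against EFO-21 (adjusted p = 0.0204). OV-90 thus held the highest BAX and the lowest BAK1 of the parental lines.

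**Figure D1:**
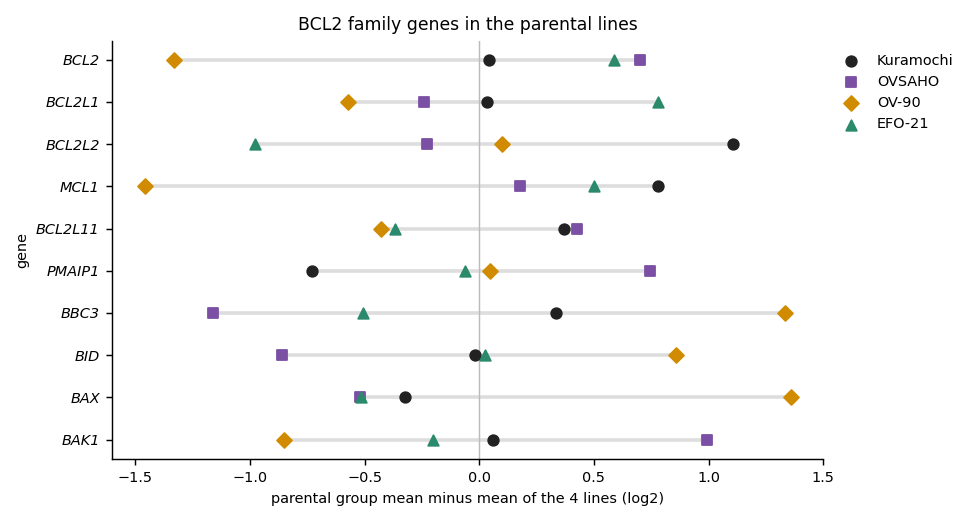
Parental group means of each gene as the distance from the mean of the 4 lines (x axis, log2), 1 row per gene and 1 marker per line, with the grey bar spanning the lines. OV-90, with 2 libraries, lies far left at MCL1 and BCL2 (group means 8.31 and 2.30) and far right at BAX, BBC3 and BID (9.21, 7.71 and 8.53).

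In resistant Kuramochi, PMAIP1 and BAX rose and BCL2L11 fell. These 3 of 10 members (30%) passed the test, against 46.9% of all genes (23.6% higher and 23.3% lower), and BCL2L11 was the 1 member past 2-fold, against 22.5% of all genes. The median change of the members was 0.11, against -0.02 over all genes, and libraries of 4 members did not overlap between the groups, against 59.2% of all genes. PMAIP1 read 5.30, 5.27 and 5.62 in the parental and 6.33, 6.34 and 6.52 in the resistant libraries. All resistant libraries lay above all parental ones, and the log2 difference was 0.999 ± 0.141 (SE, limma adjusted p = 0.00186). BCL2L11 read 5.62, 5.08 and 5.21 in parental and 4.16, 4.25 and 4.09 in resistant libraries. The groups did not overlap, and BCL2L11 was 2.20-fold lower (log2 difference -1.14 ± 0.19, adjusted p = 0.00391). These calls of PMAIP1 and BCL2L11 were kept with any 1 library left out. BAX read 7.16, 7.62 and 7.80 in parental and 8.09, 7.97 and 8.22 in resistant libraries, all resistant values being higher. Its log2 difference was 0.56 ± 0.17 (adjusted p = 0.0373), and the call was lost without library 5, 16, 17 or 18 (adjusted p = 0.0701, 0.0975, 0.0647 and 0.109).

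The other 7 members did not pass the test in Kuramochi. BCL2L2 came closest, with 6.57, 6.80 and 6.58 in parental and 6.32, 6.48 and 6.25 in resistant libraries (log2 difference -0.30 ± 0.11, limma adjusted p = 0.0709). BCL2L1 differed by -0.03 (95% interval -0.19 to 0.13) and BID by 0.03 (-0.31 to 0.37). BCL2, MCL1 and BAK1 differed by 0.34, 0.34 and 0.20 and BBC3 by -0.35, and their libraries overlapped. Parental library 4 differed from parental libraries 5 and 6 along transcript length, with median differences of -0.27 and -0.28 over the genes with the shortest transcripts (class 1 of 4 equal length classes) and 0.28 and 0.31 over those with the longest (class 4). It held the highest MCL1 (10.96 against 10.41 and 10.27) and the lowest BBC3 (6.19 against 6.92 and 7.04) of its group, and also the lowest BAX and the highest BCL2L11. BAX falls in length class 1 and BCL2L11 in class 4, and the part of transcript length in their changes was not tested. Without library 4 both calls were kept, with log2 differences of 0.38 for BAX (limma adjusted p = 0.0272) and -0.98 for BCL2L11 (adjusted p = 0.00657). Without library 4, MCL1 passed as higher (adjusted p = 0.0119) and BBC3 as lower (adjusted p = 0.023), and BAK1 passed as higher without library 6 (adjusted p = 0.0305).

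In resistant OVSAHO, PMAIP1 again rose, and BAK1 and BCL2L1 fell. The count of 3 in 10 (30%) compares with 33.3% of all genes (17.1% higher and 16.2% lower), no member reached 2-fold (7.76% of all genes did), and the median change was 0.06 against 0 over all genes. Libraries of 4 members did not overlap, against 48.4% of all genes. PMAIP1 read 6.82, 6.83 and 6.96 in parental and 7.33, 7.43 and 7.64 in resistant libraries. The groups were apart, with a log2 difference of 0.60 ± 0.09 (limma adjusted p = 0.00566). BAK1 read 9.02, 9.0 and 9.12 in parental and 8.72, 8.62 and 8.68 in resistant libraries. All resistant libraries were lower, by 1.29-fold (log2 difference -0.37 ± 0.05, adjusted p = 0.0029). BCL2L1 read 7.35, 7.30 and 7.27 in parental and 7.09, 6.93 and 7.05 in resistant libraries, a non-overlapping difference of -0.29 ± 0.06 (adjusted p = 0.0149) that missed the threshold without library 7 (adjusted p = 0.0502).

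BCL2 was the member with the largest log2 difference in OVSAHO, 0.83 ± 0.28, and did not pass the test (limma adjusted p = 0.0693). Its parental libraries read 3.81, 4.83 and 4.35 and its resistant ones 4.93, 5.35 and 5.19. The groups did not overlap, but the parental libraries spanned 1.02, and without library 8 BCL2 passed (adjusted p = 0.0333). BID differed by 0.28 ± 0.12 (adjusted p = 0.12) and passed without library 7 (adjusted p = 0.0482). BCL2L2, BCL2L11 and BAX differed by -0.03, 0.02 and -0.03, MCL1 by 0.14 and BBC3 by 0.11. BBC3 libraries ran from 4.73 to 5.72 in parental and from 4.75 to 5.69 in resistant OVSAHO. The median change of all genes in OVSAHO was -0.14, -0.04, 0.03 and 0.17 over length classes 1 to 4. BCL2, with a longest annotated transcript of 7461 bases, falls in class 4, and the part of transcript length was not tested.

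In resistant OV-90, MCL1 rose and BID fell. These 2 of 10 members (20%) compare with 36% of all genes (18.1% higher and 17.9% lower), and MCL1 was the 1 member past 2-fold, against 16.1% of all genes. The median change was 0.07, against -0.06 over all genes. MCL1 read 7.87 and 8.75 in the parental and 9.91, 9.90 and 10.07 in the resistant libraries. All resistant libraries were above both parental ones, 3.14-fold on average (log2 difference 1.65 ± 0.27, limma adjusted p = 0.0197), and the resistant mean of 9.96 ± 0.09 came close to the 9.95 ± 0.11 of parental OVSAHO. BID read 8.77 and 8.29 in parental and 7.57, 7.72 and 7.48 in resistant libraries. The groups were apart, and BID was 1.92-fold lower (log2 difference -0.94 ± 0.17, adjusted p = 0.0232).

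Both calls were lost with any 1 of the resistant libraries left out, at adjusted p between 0.0741 and 0.0883 for MCL1 and between 0.0743 and 0.0956 for BID, where 1.46% to 2.05% of all genes passed. Changes in OV-90 also went with transcript length: the median change was -0.47 in length class 1, with the shortest transcripts, -0.16 in class 2, 0.13 in class 3 and 0.45 in class 4. MCL1, with a longest annotated transcript of 3950 bases, falls in class 3, BID, with 2495 bases, in class 2 and BAX, with 1358 bases, in class 1. Parental library 2 differed from parental library 3 by 0.26 in class 1 and -0.23 in class 4, and MCL1 was 0.88 lower in library 2 than in library 3. The part of transcript length in these results was not tested.

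The other 8 members of OV-90 did not pass the test. BBC3 read 8.02 and 7.41 in parental and 6.97, 7.12 and 7.02 in resistant libraries, all resistant values being lower (log2 difference -0.68 ± 0.20, limma adjusted p = 0.0556). BAX was lower by the same criterion, with 9.28 and 9.14 against 8.97, 9.04 and 8.89 (log2 difference -0.24 ± 0.08, adjusted p = 0.0781). PMAIP1 read 5.92 and 6.42 against 6.46, 6.65 and 6.45, a difference of 0.35 ± 0.19 (adjusted p = 0.197). BBC3 (adjusted p = 0.0044), PMAIP1 (0.0256) and BAX (0.0391) passed when parental library 3 was left out, a fit with 1 parental library in which 56.6% of all genes passed. BBC3 also passed, at the edge of the threshold, without parental library 2 (log2 difference -0.37, adjusted p = 0.05 after rounding). BAK1 differed by 0.08, BCL2L1 by 0.06, BCL2L2 by 0.16, BCL2L11 by 0.28 and BCL2 by -0.31, and the lowest BCL2 library (1.79) was at the bottom of its distribution. Libraries of 6 members did not overlap between the groups, against 69.1% of all genes.

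In resistant EFO-21, BID, BCL2L1 and BAK1 fell and no member rose. The count was 3 of 10 (30%), against 48.4% of all genes (25% higher and 23.4% lower), and the groups did not overlap at those 3 members, against 59.7% of all genes. No member reached 2-fold, against 14.3% of all genes, and the median change was -0.13 against 0.01. BID read 7.64, 7.62 and 7.83 in parental and 6.99, 7.08 and 7.15 in resistant libraries. The resistant libraries were all lower, by 1.54-fold (log2 difference -0.62 ± 0.08, limma adjusted p = 0.00123). BCL2L1 read 8.37, 8.31 and 8.30 in parental and 7.77, 7.92 and 7.91 in resistant libraries. That non-overlapping difference was -0.46 ± 0.05 (adjusted p = 0.001), and with 7.87 ± 0.09 resistant EFO-21 still had the highest BCL2L1 of the resistant lines. BAK1 read 7.85, 7.83 and 7.88 in parental and 7.57, 7.35 and 7.43 in resistant libraries, lower in every resistant library (log2 difference -0.40 ± 0.06, adjusted p = 0.0032). These 3 calls were kept with any 1 library left out.

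PMAIP1 had a log2 difference of 0.51 ± 0.32 in EFO-21, and its libraries overlapped, with 6.63, 5.86 and 5.69 in parental and 6.08, 6.94 and 6.66 in resistant cells (limma adjusted p = 0.239). BCL2L2 differed by 0.49 ± 0.27 (adjusted p = 0.19), its parental libraries running from 4.06 to 5.01 and the resistant ones from 4.85 to 5.32. MCL1 was 10.27 ± 0.07 in parental and 10.26 ± 0.08 in resistant EFO-21, a difference of -0.01 with a 95% interval of -0.14 to 0.12. BCL2L11 differed by 0.04, BAX by -0.12, BCL2 by -0.15 and BBC3 by -0.37, and BBC3 passed without library 12 (adjusted p = 0.0441).

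**Figure D2:**
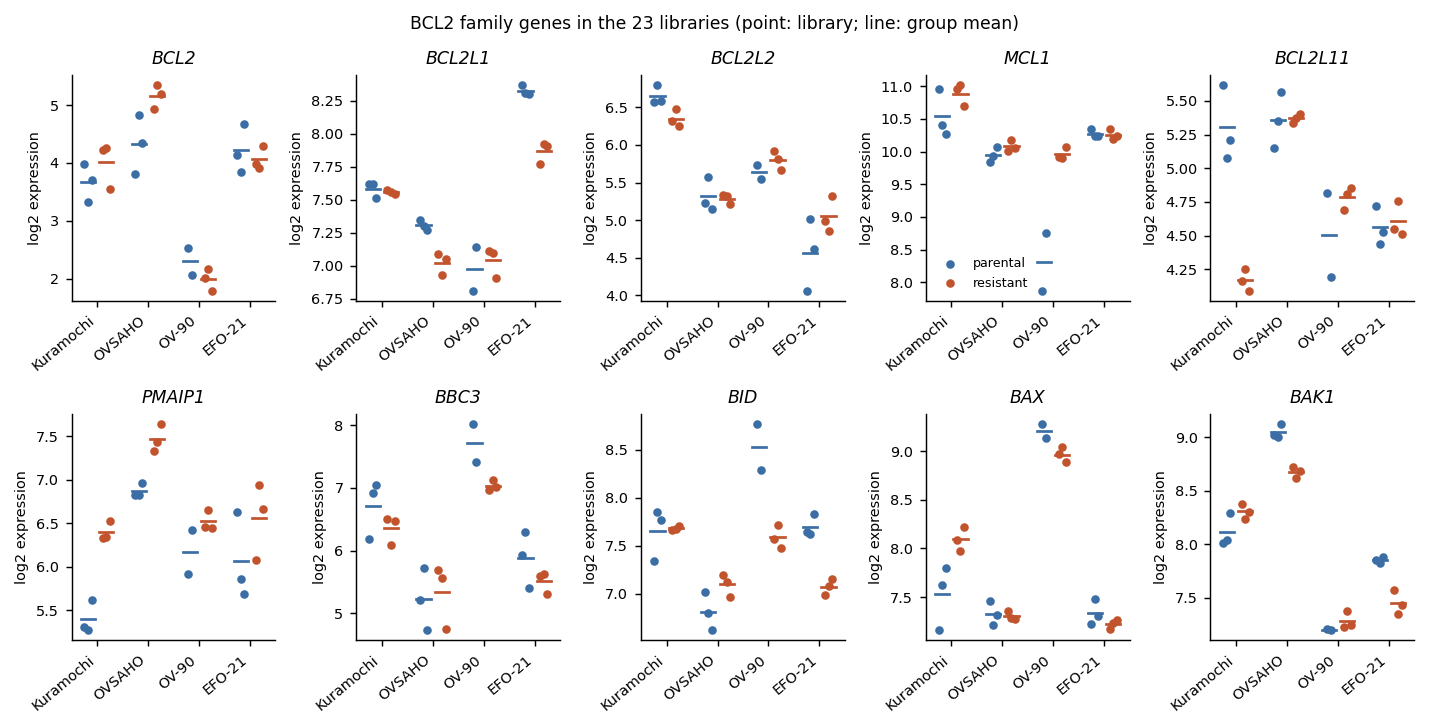
log2 expression (y axis) of the 10 genes in each of the 23 libraries, by cell line, with parental libraries in blue and resistant libraries in orange. Points are libraries and short lines are group means. MCL1 is low in both parental OV-90 libraries (7.87 and 8.75), and BCL2L11 is low in the 3 resistant Kuramochi libraries (4.09 to 4.25).

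**Figure D3:**
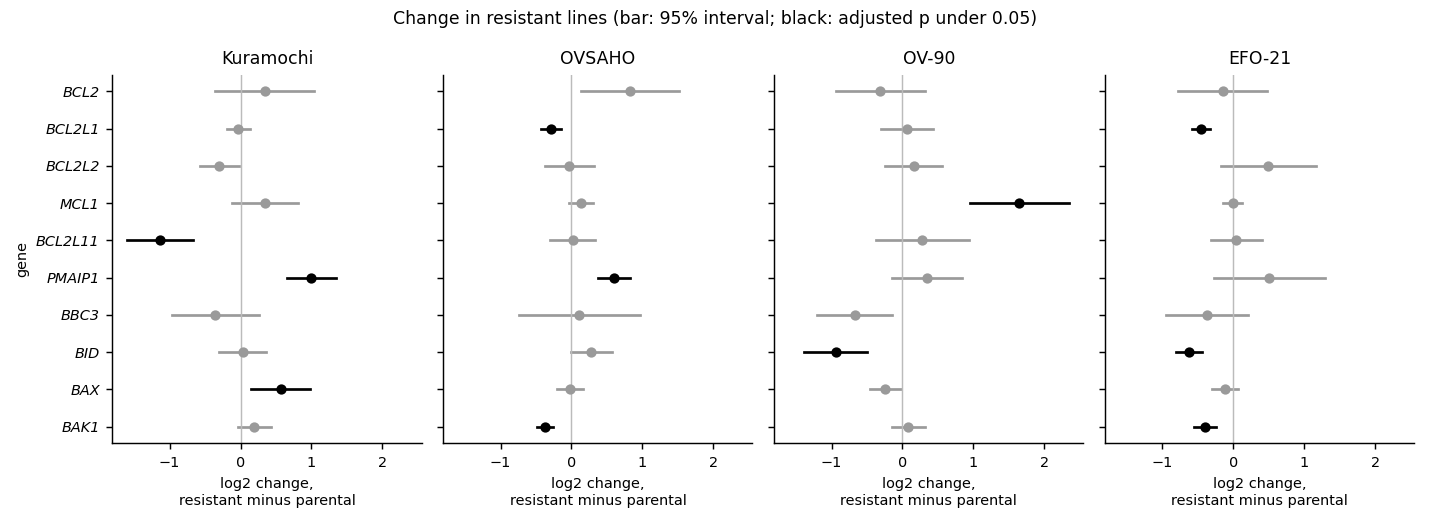
log2 change of each gene (x axis, resistant minus parental) in the 4 lines, with 95% intervals from limma and genes past an adjusted p of 0.05 in black. The points of PMAIP1 lie right of 0 in every line, at 0.999, 0.60, 0.35 and 0.51 in the order of the panels.

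Across lines, PMAIP1 was the 1 member with a positive difference in all 4, as 9.50% of all genes had. When all 23 libraries were fitted by limma as line plus resistance, its average log2 change was 0.63 ± 0.12 (SE, adjusted p = 0.000612). MCL1 averaged 0.47 ± 0.16 (adjusted p = 0.029) and BCL2L1 -0.19 ± 0.07 (adjusted p = 0.0287). These 3 of 10 members passed on average, against 33% of all genes. The fit counts the 23 libraries as replicates, although each line has 1 resistant derivative as far as the labels say. Its SE and p therefore do not measure the spread between independently derived resistant lines. The MCL1 average combined 1.65 in OV-90 with 0.34, 0.14 and -0.01 in Kuramochi, OVSAHO and EFO-21, and was lost without library 3 or 6 (adjusted p = 0.056 and 0.0501). Without parental OV-90 library 2 it was 0.31 (adjusted p = 0.0406). The BCL2L1 average was lost without library 10, 11, 12, 20 or 22 (adjusted p = 0.0503 to 0.0541), whereas that of PMAIP1 stayed at or under 0.00148 with any 1 library left out.

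Whether a gene changed differently between lines was tested as the difference of the resistant minus parental changes, in a fit with 8 group means. Of 60 gene and line-pair combinations, 22 passed an adjusted p of 0.05, against 44.5% over all genes, and 8 were also at least 2-fold, against 23.7%. For Kuramochi these were 3 members against OVSAHO (45.9% of all genes), 4 against OV-90 (56.1%) and 6 against EFO-21 (48.4%). For OVSAHO they were 5 against OV-90 (36.7%) and 1 against EFO-21 (32.4%), and for OV-90 against EFO-21 they were 3 (47.7%). No pair of lines passed for PMAIP1 or BBC3. BCL2L11 changed differently in Kuramochi than in each other line, by -1.16 ± 0.23 against OVSAHO (adjusted p = 0.000466), -1.42 ± 0.25 against OV-90 (9.13e-05) and -1.18 ± 0.23 against EFO-21 (0.000347). MCL1 changed differently in OV-90 than in each other line, the largest of these being 1.66 ± 0.26 against EFO-21 (adjusted p = 5.74e-05). BAX did so in Kuramochi, by 0.59 to 0.80. BAK1 separated the lines into OVSAHO and EFO-21, where it fell, and Kuramochi and OV-90, where it did not pass, and all 4 pairs across that division passed.

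PMAIP1 was also set against MCL1, its main binding partner, within each library as the difference of their log2 values. The values of different genes are not on one per-length scale, so only its shift between groups is read. The shift was 0.46 in OVSAHO, where all resistant libraries lay above all parental ones, and -1.30 in OV-90, where all lay below. In Kuramochi and EFO-21 it was 0.66 and 0.52, with overlapping libraries. For BCL2L11 against MCL1 the shift was -1.48 in Kuramochi and -1.37 in OV-90, with all resistant libraries below all parental ones in both, and -0.12 and 0.05 in OVSAHO and EFO-21, with overlap. The member of this pair that passed the test was BCL2L11 in Kuramochi and MCL1 in OV-90. Parental libraries ran from -5.34 to -5.06 in Kuramochi. In OV-90 the parental libraries lay at -4.56 and -3.05, further apart than the shift itself. No test was run on these shifts, and no share of other gene pairs without overlap was taken. In OV-90 they use 2 parental libraries, in which MCL1 read 7.87 and 8.75. The MCL1 call of that line was lost with any 1 resistant library left out, and the part of transcript length was not tested.

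**Figure D4:**
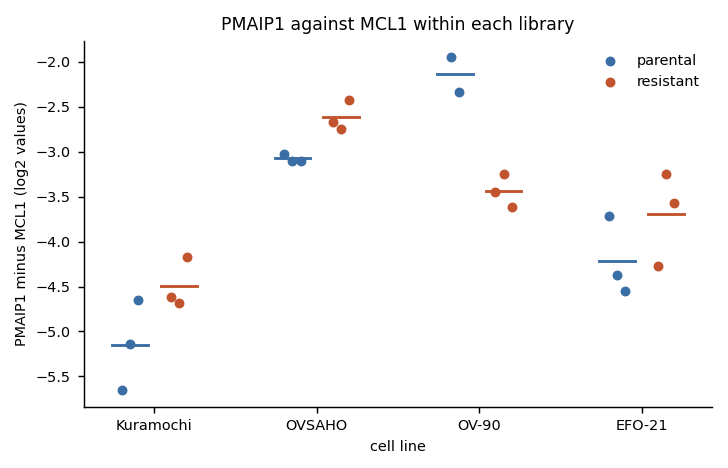
PMAIP1 minus MCL1 (y axis, difference of log2 values) in each library by cell line, parental in blue and resistant in orange, with group means as lines. Resistant OV-90 libraries, from -3.62 to -3.25, lie below the parental ones, from -2.33 to -1.95, and resistant OVSAHO libraries lie above theirs.

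Other genes of the pathway were followed in 6 lists. Their counts are read against the shares of all genes that passed, which were 23.6% higher and 23.3% lower in Kuramochi, 17.1% and 16.2% in OVSAHO, 18.1% and 17.9% in OV-90 and 25% and 23.4% in EFO-21. The list of other BCL2 family genes had 13 entries, of which BCL2A1 and BCL2L10 had no row here, leaving 11. In Kuramochi 5 of these rose and 2 fell, in OVSAHO 1 rose and 5 fell, in OV-90 3 rose and 3 fell, and in EFO-21 2 rose and 4 fell. BIK, a BH3-only protein of the endoplasmic reticulum, was lower in all 4 lines, as 0.706% of all genes were, with log2 differences of -1.47 ± 0.35 (SE) in Kuramochi, -1.43 ± 0.12 in OVSAHO, -2.27 ± 0.39 in OV-90 and -0.81 ± 0.14 in EFO-21. Its parental and resistant libraries did not overlap in any line, reading for example 7.77, 7.46 and 7.55 against 6.29, 5.97 and 6.23 in OVSAHO. In a single line 48.4% to 69.1% of all genes did not overlap, and the share over all 4 lines was not taken. The BIK call was lost without library 16 in Kuramochi (limma adjusted p = 0.0522) and without library 2, 13, 14 or 15 in OV-90 (0.0542 to 0.0892).

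HRK, a BH3-only protein known from neuronal cell death, was higher in 3 lines, by 3.14 ± 0.23 in Kuramochi, 1.98 ± 0.25 in OVSAHO and 1.66 ± 0.40 in EFO-21. In Kuramochi it read 2.79, 2.58 and 2.95 in parental and 5.74, 5.72 and 6.29 in resistant libraries. In OV-90 HRK ran from 0.67 to 3.50 with a difference of 0.20 ± 0.96, and in EFO-21 its call was lost without library 23 (limma adjusted p = 0.0533). BOK, an effector relative of BAX and BAK1, rose by 1.11 ± 0.09 in Kuramochi and fell by 1.10 in OVSAHO. In OV-90, BMF, a BH3-only protein, and BNIP3, a mitophagy receptor, were higher (log2 differences 1.40 and 1.27), and BCL2L15 and BCL2L14 were lower (log2 differences -1.58 and -1.27). In EFO-21, BCL2L15 and BNIP3 were lower (log2 differences -2.68 and -1.37).

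Of 10 genes of the apoptosome and caspases, 2 rose and 3 fell in Kuramochi, 1 and 2 in OVSAHO, 3 and 0 in OV-90 and 0 and 3 in EFO-21, where in either direction 46.9%, 33.3%, 36% and 48.4% of all genes passed. In OV-90, APAF1, the scaffold of the apoptosome, was higher by 1.89 ± 0.35 and CASP2 by 1.02 ± 0.28. Without parental library 2 these differences were 1.34 and 0.60, and the CASP2 call was lost. CASP2 also fell short without the mean-variance trend (limma adjusted p = 0.0574). DFFB, the nuclease of apoptotic DNA cleavage, fell by 1.36 in Kuramochi, and CASP6 fell by 1.43 in EFO-21. Of 9 caspase inhibitors and their antagonists, 3 rose in Kuramochi and OVSAHO each, 1 rose and 5 fell in OV-90 and 1 fell in EFO-21, against the same shares of all genes. BIRC3, a ubiquitin ligase of the inhibitor of apoptosis family and a target of NF-κB, rose by 2.31 ± 0.20 in Kuramochi and fell by 1.65 in EFO-21. BIRC6 rose by 1.18 ± 0.26 in OV-90, and by 0.77 without parental library 2 (adjusted p = 0.0174).

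Of 10 genes of death receptor signalling, 3 rose and 4 fell in Kuramochi, 2 and 2 in OVSAHO, 0 and 3 in OV-90 and 0 and 6 in EFO-21, where 25% of all genes rose and 23.4% fell. The EFO-21 falls were led by FAS, from 7.96 ± 0.04 to 5.11 ± 0.04 (log2 difference -2.85 ± 0.06), and TNFSF10 (TRAIL), from 9.74 ± 0.08 to 7.92 ± 0.10 (-1.82 ± 0.06). In Kuramochi TNFSF10 and the decoy receptor TNFRSF10C fell (log2 differences -2.26 and -1.96), the latter to resistant values at the bottom of the distribution, and in OVSAHO TNFRSF10C rose by 1.17, a call lost without library 7, 19, 20 or 21. TNFRSF10A, a TRAIL receptor, was lower in all 4 lines, with log2 differences of -0.36 in EFO-21, -0.89 in Kuramochi and -1.06 in OV-90. Its EFO-21 call was lost when all 23 libraries were fitted together (limma adjusted p = 0.0766) and its OV-90 call without parental library 2 (0.0741). In OVSAHO all TNFRSF10A values lay at the bottom of the distribution (0.44 to 1.44), so that difference is no measured fold, and it lost its call without any 1 of 5 libraries and with the filter on low values (adjusted p = 0.108).

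Of 10 genes that control the turnover of the MCL1 protein, 4 rose and 1 fell in Kuramochi, 3 and 0 in OVSAHO, 4 and 0 in OV-90 and 1 and 4 in EFO-21, where in either direction 46.9%, 33.3%, 36% and 48.4% of all genes passed. In OV-90, where MCL1 RNA rose, the deubiquitinase USP9X was higher by 1.56 ± 0.38 and the ubiquitin ligases HUWE1 and TRIM17 by 1.35 ± 0.34 and 1.19 ± 0.11. Without parental library 2, USP9X was higher by 0.94 (limma adjusted p = 0.0172) and HUWE1 by 0.78 (0.0177), and without the mean-variance trend HUWE1 did not pass (0.0521). TRIM17 fell by 1.32 in Kuramochi and by 1.09 in EFO-21, and MAPK8 (JNK) rose by 1.21 ± 0.11 in Kuramochi. The Kuramochi fall of TRIM17 ended at a resistant mean of 1.79, within the 1.7 to 1.87 of the 10th percentiles of the libraries. Of 13 upstream regulators, 4 rose and 4 fell in Kuramochi, 5 and 1 in OVSAHO, 5 and 3 in OV-90 and 5 and 4 in EFO-21, against the same shares of all genes. MYC was higher in all 4 lines, as 0.628% of all genes were, by 0.39 ± 0.05, 0.30 ± 0.06, 0.80 ± 0.13 and 0.55 ± 0.05 in Kuramochi, OVSAHO, OV-90 and EFO-21, and so was MITF, known as an activator of BCL2 in melanocytes, by 1.41 ± 0.19, 0.74 ± 0.13, 1.22 ± 0.33 and 0.90 ± 0.14. The OV-90 call of MITF was lost without parental library 2 (0.74, adjusted p = 0.0578) and without the mean-variance trend (0.0511). MDM2, the ubiquitin ligase of p53, was higher by 2.07 ± 0.35 in OV-90, and by 1.51 without parental library 2. The p53 relatives TP63 and TP73 fell in Kuramochi (log2 differences -2.22 and -1.33), and in OVSAHO TP63 fell by 2.69 and TP73 rose by 1.05. The OVSAHO fall of TP63 ended at a resistant mean of 1.57 ± 0.62 (SD), at the bottom of the distribution, so it is no measured fold. Resistant Kuramochi TP63, at 2.04 ± 0.42 (SD), was near the bottom. TP63 fell by 1.05 in OV-90, a call lost without parental library 2 (adjusted p = 0.153), and FOXO1, an activator of BCL2L11, fell by 1.18 in Kuramochi. Of the 16 OV-90 calls followed for single genes of the 6 lists, 15 were lost with any 1 of its 3 resistant libraries left out, and BCL2L14 was kept. The median OV-90 change of all genes ran from -0.47 in length class 1, with the shortest transcripts, to 0.45 in class 4. The part of transcript length in the OV-90 changes of listed genes was not tested. BIK, TNFRSF10A, MYC and MITF were singled out as moving the same way in every line, and BCL2L14 as the call that was kept, after their values were seen.

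**Figure D5:**
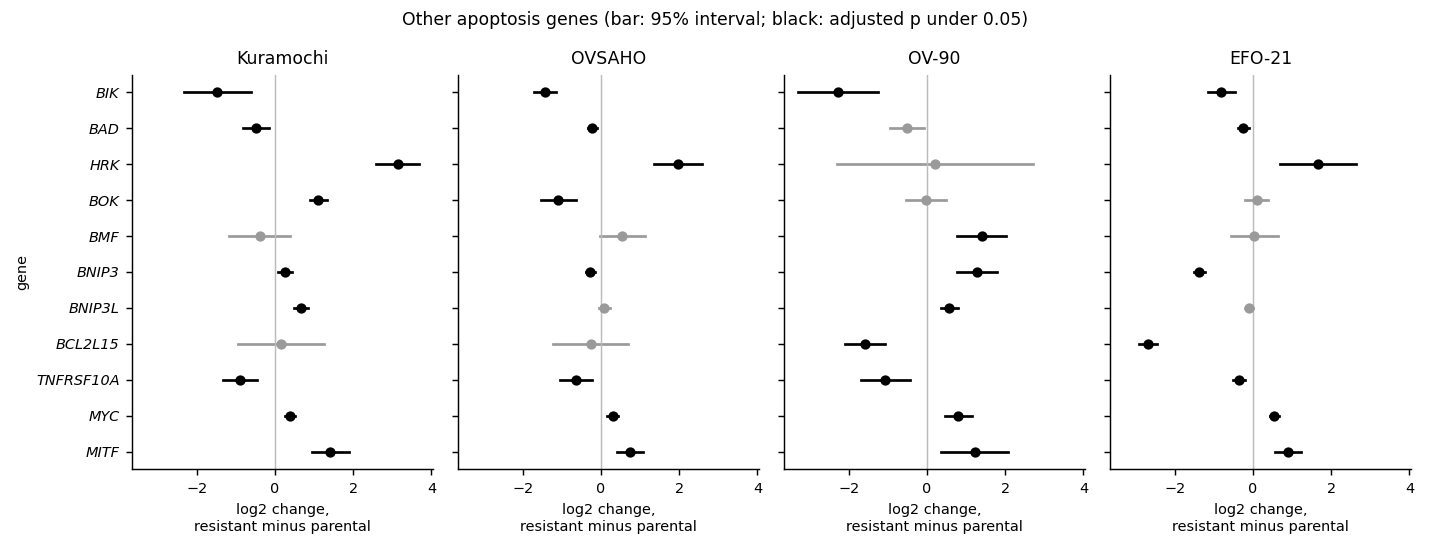
log2 change (x axis, resistant minus parental) of 11 other apoptosis genes in the 4 lines, with 95% intervals from limma and genes past an adjusted p of 0.05 in black. The genes were selected after their values were seen. BIK and TNFRSF10A lie left of 0 and MYC and MITF right of 0 in all 4 lines, and HRK is wide in OV-90 (difference 0.20 ± 0.96, SE).

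The genes whose pattern was most like that of each member were taken by Pearson correlation over the 23 libraries, among 9401 or 9402 genes that are expressed above the median and vary between groups. The libraries fall into 4 lines, so these values mostly describe line differences. The closest gene was ANKFY1 for MCL1 (r = 0.976), RPS18P5 for BAK1 (0.980), TXN for BAX (0.974), DCTN6 for BCL2L1 (0.970), PLD2 for BCL2L2 (0.952), CTSB for BCL2 (0.937), COX17 for BBC3 (0.936), RPL24P8 for BID (0.914), PRPS2 for PMAIP1 (0.913) and EYA3 for BCL2L11 (0.902). RPS18P5 and RPL24P8 are ribosomal protein pseudogenes, whose reads cannot be told apart with certainty from those of their parent genes.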

How the data were processed

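Total RNA from 23 cultures was made into stranded mRNA libraries and sequenced. The authors aligned reads to GRCh37/hg19, dropped poorly covered exons and summarised each gene by a robust linear model (the method marked for 16448 genes, including all 10 members, against a mean of log2 exon values for 5210). The deposited table gives log2 expression after quantile normalization by the authors, which hides any shift that most genes share. Depth is unknown, and precision rests on the spread between the biological replicates. Columns of no sample numbered 0. Columns name the line and resistance, and library numbers serve as names.

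Each line was fitted with limma 3.58.1 in R 4.3.3 (lmFit, eBayes with a mean-variance trend, no filter, no pseudocount), two-sided, with Benjamini-Hochberg adjustment over 21658 genes. Baseline pairs used the parental libraries, differences of changes 8 group means, and the average the line as a block. Exact permutation of 3 against 3 or 2 against 3 libraries cannot go below p = 0.1 and was not run. Fits were tested on simulated data in which 200 of 21658 genes changed by a log2 difference of 1. Recovery was 34.5% in Kuramochi, 32.5% in OVSAHO, 11.5% in OV-90 and 34% in EFO-21, and 84.5% for the average. Unchanged genes made up 1.43%, 7.14%, 4.17% and 6.85% of the calls in these lines and 11.1% for the average. The simulation gave each gene 1 spread, averaged over the 8 groups, and planted the same change in all 4 lines. In the data 33.3% to 48.4% of all genes passed in a line, far more than the 200 changed here. Recovery therefore does not measure the power of each line in the data, and the shared change favours the average. Under these settings a change of that size could go uncalled in a single line.

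The members, lists and tests were chosen with earlier results of these data known. All 10 members are named everywhere, and other listed genes where they changed at least 2-fold, at most the 4 largest per list and line. Symbols came from RefSeq (GRCh38.p14, 95.8% of IDs), and positions and the longest transcript (90.5% of genes) from GENCODE lifted to GRCh37. Alternatives were 1 fit of all 23 libraries, no trend, a filter at the 25th percentile of gene means, recentred libraries, 1.5-fold and 2-fold thresholds, and each library left out. Transcript lengths and the alternatives for other listed genes were added after seeing the data. A gene of the caspase list is not reported here.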

Additional observations from a re-analysis of the deposited data

Results flagged for a closer look

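The change from parental to resistant cells differed between lines, by a limma test of the difference itself, in 22 of 60 combinations, against 44.5% of all gene and line-pair combinations, at adjusted p between 5.74e-05 and 0.0405. Each value here is the log2 change in the line named first minus that in the second. For BCL2L11, Kuramochi differed from OVSAHO by -1.16, from OV-90 by -1.42 and from EFO-21 by -1.18. For BAX, Kuramochi differed from OVSAHO by 0.59, from OV-90 by 0.80 and from EFO-21 by 0.68. For MCL1, OV-90 was the odd line, with -1.31 for Kuramochi minus OV-90, -1.52 for OVSAHO minus OV-90 and 1.66 for OV-90 minus EFO-21.

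For BID, Kuramochi exceeded OV-90 by 0.97 and EFO-21 by 0.65, and OVSAHO exceeded OV-90 by 1.22 and EFO-21 by 0.90. For BAK1, the differences were 0.56 for Kuramochi minus OVSAHO, 0.60 for Kuramochi minus EFO-21, -0.45 for OVSAHO minus OV-90 and 0.48 for OV-90 minus EFO-21. For BCL2L1, they were 0.43 for Kuramochi minus EFO-21, -0.35 for OVSAHO minus OV-90 and 0.52 for OV-90 minus EFO-21. BCL2L2 differed by -0.79 for Kuramochi minus EFO-21, and BCL2 by 1.14 for OVSAHO minus OV-90. No formal test for outlying libraries was run in groups of 3 or fewer, and each library was left out in turn.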

How the results depend on the processing

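No paired analysis was possible because the columns carry library numbers but no replicate numbers. With no counts, limits set by depth could not be derived. A threshold of 1.5-fold left 1 member each in OVSAHO, EFO-21 and the average, and 2-fold left 1 in Kuramochi, 0 in OVSAHO, 1 in OV-90, 0 in EFO-21, 0 on average, 22 of 60 baseline combinations (44.7% over all genes) and 8 of 60 differences of changes (23.7%). Leaving out 1 library gave counts of 2 to 5 in Kuramochi (5 without library 4), 3 to 4 in OVSAHO, 0 to 5 in OV-90 (5 without library 3, 0 without 13, 14 or 15), 3 to 4 in EFO-21, 2 to 5 on average (5 without library 9), 41 to 45 for baseline and 20 to 24 for differences. Where parental OV-90 had 1 library, its spread was assumed to be that of the resistant group.

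Fitting 23 libraries together brought BAK1 in Kuramochi (limma adjusted p = 0.0311), BCL2 in OVSAHO (0.0352) and BCL2L2 in EFO-21 (0.0402) past the threshold. Without the trend BAX in Kuramochi missed it (0.0558), as did CASP2 (0.0574), HUWE1 (0.0521) and MITF (0.0511) in OV-90, and with the filter BCL2 in OVSAHO (0.0418) and BBC3 in OV-90 (0.0375) passed. Recentring changed no member's call, and shifted the median of all genes by at most 0.027 in size (-0.027 in OV-90). For the average, BID passed without library 4 or 9 and BBC3 without library 9 (0.0484).

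Differences that turned sign when 1 library was left out were not called in any setting. Their log2 ranges were -0.10 to 0.23 for BCL2L1, -0.04 to 0.59 for BCL2L11 in OV-90, -0.13 to 0.12 for BID in Kuramochi, -0.085 to 0.122 for BCL2L11, -0.086 to 0.042 for BAX, -0.12 to 0.10 for BCL2L2 and -0.14 to 0.41 for BBC3 in OVSAHO, -0.056 to 0.029 for MCL1, -0.035 to 0.119 for BCL2L11 and -0.343 to 0.079 for BCL2 in EFO-21, and on average -0.004 to 0.112 for BCL2L2 and -0.008 to 0.097 for BAX. The cause of these shifts was not tested.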
